A study of Mus musculus with 24 samples.

Results

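The genes described here mark the oligodendrocyte lineage, the cells of the central nervous system that make myelin, in mouse neural progenitor cells (NPC) and in mouse embryonic stem cells (mESC). A list of 8 genes was taken by symbol from both expression tables: Olig1, Olig2, Nkx2-2 and Sox10, which encode transcription factors, Pdgfra and Cspg4, which encode surface proteins of oligodendrocyte progenitors, and Bcan and Ptprz1, which encode a matrix proteoglycan and a receptor phosphatase. The NPC table used here held 7 of the 8 among 16024 genes, and the mESC table held all 8 among 17501; Olig1 in NPC was not analysed here. All 7 were tested in NPC, that is, they reached 1 CPM (the read count scaled to library size) in at least 2 of the 12 libraries. In mESC 7 of 8 were tested, and Nkx2-2 stayed under that level.

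RNA sequencing was done on 24 libraries, 12 from each cell type, with 2 libraries for each of 6 Htt genotypes. Htt encodes huntingtin, whose expanded CAG repeat causes Huntington's disease. The groups were wild-type cells (WT), cells lacking Htt by knockout (KO) and heterozygous CAG knock-in lines, labelled Q20, Q50, Q92 and Q111 after the repeat length of the knock-in allele (the protocol has 89 for the third; 92 was used). The knock-in mESC came from an allelic series and were kept with leukemia inhibitory factor on mouse embryonic fibroblast feeder cells. NPC were differentiated from mESC in N2B27 medium and then expanded on laminin with FGF and EGF. The labels name neither the strain nor the origin of the WT and KO cells, nor how many clones stand for a genotype, so genotype and cell line cannot be told apart. Both libraries of a group are called biological samples, and with 2 of them a p-value measures the spread within these pairs.

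Oligodendrocyte progenitors arise from neural stem cells that express Olig2, a basic helix-loop-helix factor that sets the lineage and is also found in neural stem cells grown with growth factors. Sox10 acts with Olig1 and Olig2 in turning on progenitor and myelin genes, and Nkx2-2 is a homeodomain factor of the ventral neural tube that takes part in the step to myelin formation. Progenitors divide in response to platelet-derived growth factor through the receptor encoded by Pdgfra, and carry the NG2 proteoglycan encoded by Cspg4 until they mature. Brevican (Bcan) and the phosphatase encoded by Ptprz1, a receptor for pleiotrophin, are made by these progenitors and by other glial and neural stem cells.

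Depth was 48525333 to 118038952 reads per NPC library and 58546211 to 81502284 per mESC library. Values are normalised CPM, and a change is a difference of log2(CPM + 1), tested with limma over all genes of a cell type. Htt served as the check of the labels: in NPC it was 137 and 177 CPM in WT, 100.1 and 94.9 in KO and 137 to 184 in the knock-in lines, while the mESC library labelled KO 1 stood at 139, above both WT libraries at 124 and 113, and the other mESC KO library at 68.5. Htt was not called in KO against WT in either cell type (limma adjusted p 0.0673 in NPC and 1.00 in mESC). Neural stem genes were present in all NPC libraries, with Nes at 353 to 1273 and Fabp7 at 1194 to 3921; Sox2 was not analysed here. The Q20 NPC libraries stood apart: they held Pou5f1, a pluripotency factor, at 90.1 and 87.4, Nanog at 13.0 and 13.7 and the neuronal gene Stmn2 at 103 and 128. The other tested pluripotency genes, Esrrb and Klf4, were not called in Q20 against WT (-0.86 and -0.44). In the other 10 NPC libraries Pou5f1 was at most 0.405, Nanog at most 1.63 and Stmn2 at most 5.51. Since Q20 is the reference of the longer repeats, these comparisons are set beside WT below.

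In NPC the genes of the list were expressed over a wide range. Per kilobase of exon, the median over the 12 libraries was 121 CPM for Bcan, 70.5 for Ptprz1 and 69.6 for Olig2. Pdgfra followed at 9.90 CPM per kilobase, then Nkx2-2 at 2.69, Cspg4 at 2.25 and Sox10 at 0.923. By these medians Olig2 and the 2 matrix and receptor genes shared with neural stem cells were the abundant ones, and Nkx2-2, Cspg4 and Sox10 were low. The order was not the same in each line: in Q20 the mean per kilobase was 18.1 CPM for Olig2 and 18.2 for Pdgfra.

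**Figure D1:**
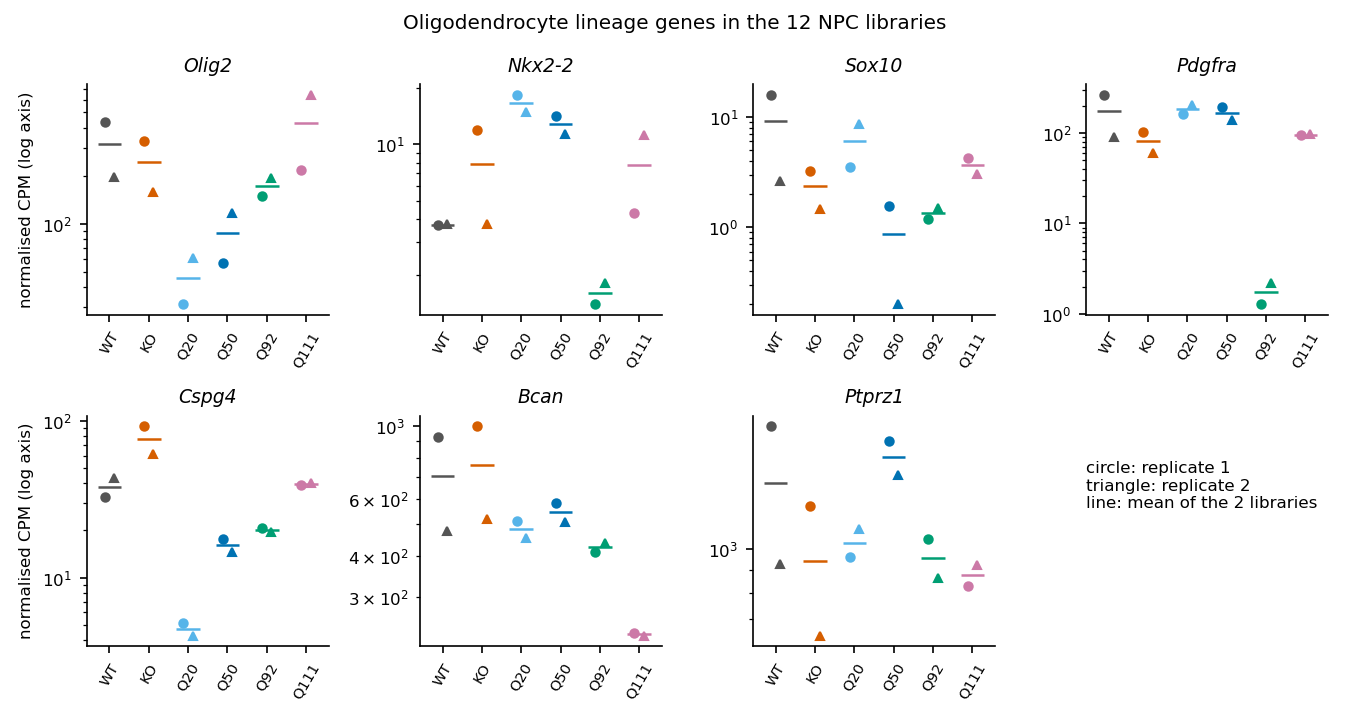
Normalised CPM (log axis) of the 7 genes in the 12 NPC libraries by genotype, with a circle for replicate 1, a triangle for replicate 2 and a line at their mean. Cspg4 and Olig2 are lowest in Q20, Pdgfra and Nkx2-2 are lowest in Q92, and Bcan is lowest in Q111; in WT and KO, replicate 1 lies above replicate 2 for most genes.

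Olig2 (ENSMUSG00000039830, chromosome 16, 91225457 to 91228677, plus strand, GRCm38) was 434 and 195 CPM in WT, 332 and 159 in KO, 31.2 and 60.5 in Q20, 56.4 and 117.5 in Q50, 150.2 and 193 in Q92 and 217 and 644 in Q111. The Q20 libraries and 1 Q50 library were the lowest of all, and those of Q92 lay just under the WT pair. The means ran from 431 ± 302 (SD, n = 2) in Q111 through WT, KO, Q92 and Q50 to 45.9 ± 20.8 (SD, n = 2) in Q20. Neighbours in this order differed by no more than their summed SDs, except Q92 and Q50.

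Nkx2-2 (ENSMUSG00000027434, chromosome 2, 147177546 to 147194243, minus strand) was 3.71 and 3.76 CPM in WT, 12.0 and 3.76 in KO, 18.4 and 15.0 in Q20, 14.2 and 11.4 in Q50, 1.40 and 1.83 in Q92 and 4.29 and 11.2 in Q111. The Q92 pair lay under all other libraries, and the Q20 pair above them. Of the 5 neighbouring pairs in the order Q20, Q50, KO, Q111, WT and Q92, only WT and Q92 were further apart than their summed SDs. The gene overlaps the antisense gene Nkx2-2os and 6430503K07Rik, and the sources used here do not state whether counting used the strand, so reads of the 3 cannot be told apart.

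Sox10 (ENSMUSG00000033006, chromosome 15, 79154908 to 79165240, minus strand) was the least abundant, from 0.200 CPM (17 reads) in a Q50 library to 15.8 (901 reads) in a WT library. Its 2 values within a genotype were as unlike as 15.8 and 2.61 in WT, 3.52 and 8.60 in Q20 and 1.55 and 0.200 in Q50. No neighbouring pair of genotypes differed by more than the summed SDs.

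Pdgfra (ENSMUSG00000029231, chromosome 5, 75152292 to 75198215, plus strand) was 264 and 89.8 CPM in WT, 102 and 60.6 in KO, 162 and 203 in Q20, 193 and 139 in Q50 and 95.6 and 96.7 in Q111. In the Q92 libraries it was 1.27 and 2.20, far under all 10 others. The highest and the lowest group mean, 182 ± 28.7 in Q20 and 1.74 ± 0.66 in Q92 (SD, n = 2 each), differed 105-fold. Q20, WT and Q50 were not apart beyond their summed SDs, nor were Q111 and KO. The 3 genes that overlap it were not analysed here.

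Cspg4 (ENSMUSG00000032911, chromosome 9, 56865033 to 56899870, plus strand) was 32.9 and 43.3 CPM in WT, 92.1 and 61.5 in KO, 5.17 and 4.26 in Q20, 17.6 and 14.5 in Q50, 20.8 and 19.5 in Q92 and 39.0 and 39.9 in Q111. Its replicates lay close together outside KO, and 4 of the 5 neighbouring pairs in the order KO, Q111, WT, Q92, Q50 and Q20 were further apart than their summed SDs. Q111 and WT were the pair that was not.

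Bcan (ENSMUSG00000004892, chromosome 3, 87987531 to 88000230, minus strand) was 929 and 477 CPM in WT, 998 and 520 in KO, 513 and 454 in Q20, 582 and 507 in Q50, 412 and 439 in Q92 and 233 and 228 in Q111. The Q111 pair was under all others. Ptprz1 (ENSMUSG00000068748, chromosome 6, 22875502 to 23052916, plus strand) was 1857 and 928 CPM in WT, 1241 and 643 in KO, 959 and 1103 in Q20, 1723 and 1456 in Q50, 1048 and 861 in Q92 and 826 and 921 in Q111. Its group means spanned 1.82-fold, and none of its neighbouring pairs differed by more than the summed SDs.

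In WT and KO the first library was the higher for most of these genes. The ratio of replicate 1 to replicate 2 in WT was 2.22 for Olig2, 2.94 for Pdgfra, 6.04 for Sox10, 1.95 for Bcan and 2.00 for Ptprz1, but 0.989 for Nkx2-2 and 0.761 for Cspg4. In KO all 7 were higher in replicate 1, by a median of 0.94 on the log2 scale, where the median over all genes was 0.0047. The WT median was 1.00 for the 7 genes and -0.036 for all genes. Glial genes outside the list differed the same way: Aqp4, an astrocyte water channel, was 102 and 5.76 in WT and 29.5 and 4.40 in KO, and Ednrb, a receptor of glia and neural crest, was 771 and 134 in WT. The part of this split in the KO and WT values was not tested.

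The levels of some members went together over the 12 NPC libraries, given as a description since libraries of a genotype share their line. The Pearson r of log2(CPM + 1) was 0.772 for Olig2 and Cspg4, both lowest in Q20, and 0.738 for Pdgfra and Nkx2-2, both lowest in Q92. Over all 21 pairs of the 7 genes it ran from -0.41, for Olig2 and Nkx2-2, to that highest value. Sequence before the start of these 4 genes is shown for this reason, read from the RefSeq promoter table (GRCm38.p6), which matched 6 of the 8 genes. Each stretch runs 5′ to 3′ on the gene's strand within the 250 bases before the RefSeq start, without bases that GENCODE M21 counts as exon. Capitals mark the E-box CANNTG, the short motif that basic helix-loop-helix factors such as Olig2 bind.
Olig2: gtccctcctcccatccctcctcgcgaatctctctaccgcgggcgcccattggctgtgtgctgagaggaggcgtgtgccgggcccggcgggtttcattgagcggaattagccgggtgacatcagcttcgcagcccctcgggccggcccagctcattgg
Cspg4: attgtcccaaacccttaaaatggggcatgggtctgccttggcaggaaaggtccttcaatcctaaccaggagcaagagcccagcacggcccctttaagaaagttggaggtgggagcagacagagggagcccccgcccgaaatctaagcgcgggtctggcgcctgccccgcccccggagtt
Pdgfra: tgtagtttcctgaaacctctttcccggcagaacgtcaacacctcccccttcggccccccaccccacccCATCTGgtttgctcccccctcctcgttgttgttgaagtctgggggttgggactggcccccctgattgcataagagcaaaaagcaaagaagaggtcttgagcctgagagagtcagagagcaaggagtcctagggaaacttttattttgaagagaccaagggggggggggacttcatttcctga
Nkx2-2: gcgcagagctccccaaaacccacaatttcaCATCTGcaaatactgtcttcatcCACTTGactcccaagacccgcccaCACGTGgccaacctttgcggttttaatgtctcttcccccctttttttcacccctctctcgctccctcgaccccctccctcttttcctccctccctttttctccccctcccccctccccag

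These stretches are chr16:91225300-91225456 for Olig2, chr9:56864854-56865032 for Cspg4, chr5:75152001-75152250 for Pdgfra and chr2:147186456-147186652 for Nkx2-2; the last lies inside the GENCODE gene, between exons. Pdgfra held 1 E-box and Nkx2-2 held 3, and both contain the letters CATCTG. Olig2, Cspg4, Bcan and Ptprz1 held none in the 250 bases, where 66.2% of 32851 promoter windows of that length hold at least 1. The Sox motif ACAAAG, on either strand, was in none of the 6 windows and in 16.5% of all; a second one, ACAATG, was in that of Olig2, outside the stretch shown, and in 10.7% of all. A GC box, GGGCGG on either strand, was found in the windows of Cspg4, Bcan, Ptprz1, Nkx2-2 and Olig2 and in 32.7% of all. A match is a run of letters and says nothing of binding in these cells.

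KO and WT cells were compared for the effect of losing Htt. In NPC none of the 7 genes was called at an adjusted p under 0.05 by limma, where 1.42% of 13206 tested genes were called. An unadjusted limma p under 0.05 was found for 1 of the 7 and for 1755 of the 13206. Cspg4 came closest, 1.97-fold higher in KO, a log2 change of 0.98 (SE 0.23, limma adjusted p 0.109). Both its KO libraries lay above both WT libraries. Such a lack of overlap was found for 2 of the 7 genes and for 29.7% of all genes, a like share. The changes of the other 6 ran from -1.27 for Sox10 to 0.73 for Nkx2-2. Over 12 alternatives, some of which leave a group with 1 library, the Cspg4 change ran from 0.69 to 1.27. Which members were called depended on the library left out.

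**Figure D2:**
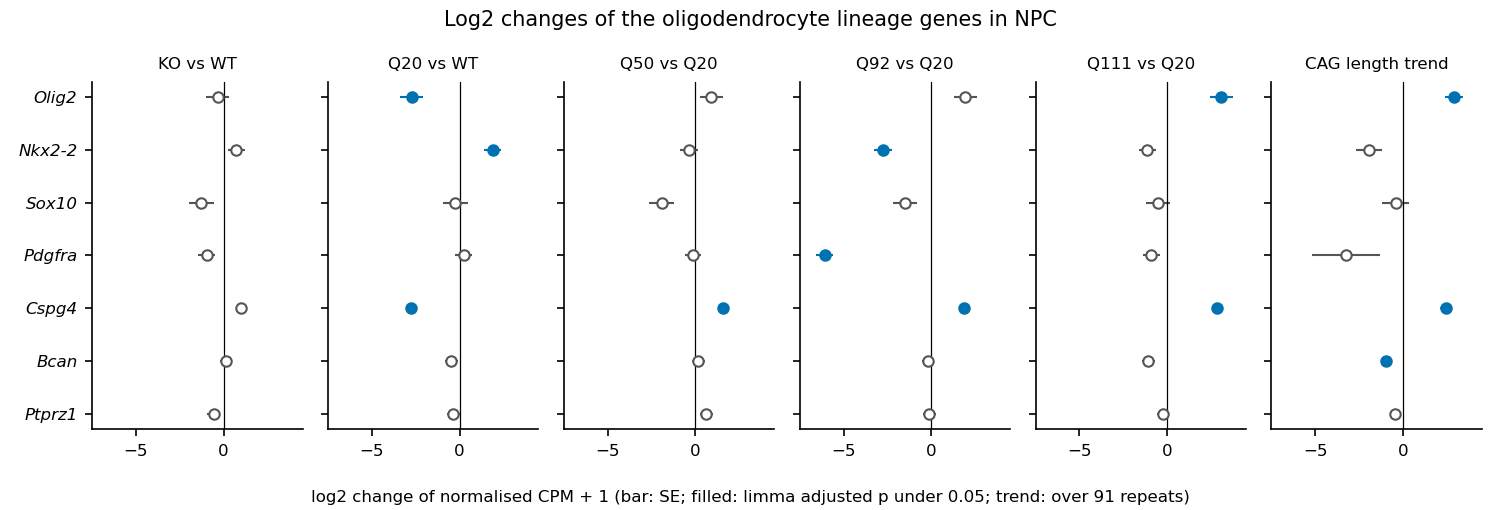
Log2 change of each of the 7 genes in NPC in 5 comparisons of groups and in the CAG length trend (over 91 repeats), with the SE as a bar where it is wider than the point; filled points have a limma adjusted p under 0.05. Cspg4 is called in all panels but the first, Olig2 in 3, and Pdgfra at -6.08 in Q92 against Q20.

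In the comparison of Q20 with WT, the shortest knock-in allele against no knock-in, 3 of the 7 genes were called in NPC, where 14.5% of all tested genes were called. Cspg4 fell by 2.77 on the log2 scale (SE 0.23, limma adjusted p 0.000106) and Olig2 fell by 2.72 (SE 0.66, limma adjusted p 0.0269). Nkx2-2 rose by 1.89 (SE 0.50, limma adjusted p 0.039). The Cspg4 call held when any 1 library was left out, with adjusted p from 0.000403 to 0.00166. That of Olig2 was lost without the first WT library (adjusted p 0.0906) or without either Q20 library (0.171 and 0.0572). Nkx2-2 lost its call without any 1 of the 4 libraries (0.0791 to 0.187) and with edgeR on the reads (0.0538). The other 4 genes changed by -0.46 (Bcan) to 0.23 (Pdgfra) and were not called.

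Against Q20, Cspg4 was higher in each of the 3 longer lines. It rose in Q50 by 1.58 (SE 0.23, limma adjusted p 0.00221), in Q92 by 1.89 (SE 0.23, adjusted p 0.000679) and in Q111 by 2.83 (SE 0.23, adjusted p 8.91e-05). These 3 comparisons share the Q20 libraries. Olig2 rose in Q111 by 3.08 (SE 0.66, limma adjusted p 0.0108); its changes of 0.89 in Q50 and 1.94 in Q92 were not called (adjusted p 0.406 and 0.0601). The Olig2 call was lost without the first Q20 library (0.0800) or without the second Q111 library (0.0748). In Q92, Pdgfra fell by 6.08 (SE 0.47, limma adjusted p 5.12e-05) and Nkx2-2 fell by 2.75 (SE 0.50, adjusted p 0.00505). Bcan in Q111 changed by -1.06 (SE 0.35, limma adjusted p 0.0523) and was not called. In all, 1 of 7 genes was called in Q50 against Q20, where 18.8% of all genes were called. The counts were 3 of 7 in Q92, beside 25.8% of all genes, and 2 of 7 in Q111, beside 28.3%. With so many genes called in these lines, calls of 1 to 3 members are read gene by gene.

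Set against WT in the same model, the picture of Cspg4 and Olig2 was another. Cspg4 fell in Q50 by 1.19 (SE 0.23, limma adjusted p 0.0206), where 6.62% of all genes were called, and it was the 1 member called there. In Q92 its change was -0.87 (adjusted p 0.056), and in Q111 it was 0.06 (SE 0.23, adjusted p 0.874). Olig2 changed by -1.83, -0.77 and 0.36 in the 3 lines, none called. Pdgfra in Q92 was lower than in WT too, a change of -5.85 (SE 0.47, limma adjusted p 0.000477), the 1 member called where 8.66% of all genes were. Nkx2-2 in Q92 changed by -0.86 against WT (adjusted p 0.306). Bcan in Q111 fell by 1.53 (SE 0.35, limma adjusted p 0.0232), the 1 member called where 16.6% of all genes were. So the low Pdgfra of Q92 held against both references, while the Cspg4 and Olig2 levels of Q111 were called higher than those of Q20 and were not called different from those of WT.

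The trend with CAG length over the 8 knock-in libraries called 3 of the 7 genes, where 22% of all tested genes were called. Over the 91 repeats between Q20 and Q111, Olig2 rose by 2.91 (SE 0.51, limma adjusted p 0.00677) and Cspg4 rose by 2.47 (SE 0.34, adjusted p 0.00291). The group means of both rose at each step, Olig2 from 45.9 to 86.9, 171 and 431 CPM and Cspg4 from 4.71 to 16, 20.2 and 39.5. Bcan fell by 0.95 (SE 0.29, limma adjusted p 0.0464), with means of 484, 545, 426 and 230.4. Pdgfra had a slope of -3.25 (SE 1.92, adjusted p 0.256), and its mean was lowest in Q92 and not at the longest repeat. Without the Q20 line the calls of Cspg4 (slope 1.67, adjusted p 0.0596) and Olig2 (3.10, adjusted p 0.0682) were lost while Bcan (-1.66, adjusted p 0.0368) and Ptprz1 (-1.34, adjusted p 0.026) were called. With 1 mean per line, which leaves 4 points, no gene of the table was called, and the adjusted p was 0.295 for Cspg4 and Olig2 and 0.397 for Bcan. The call of Bcan was also lost without any 1 of 7 of the 8 libraries and with edgeR.

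**Figure D3:**
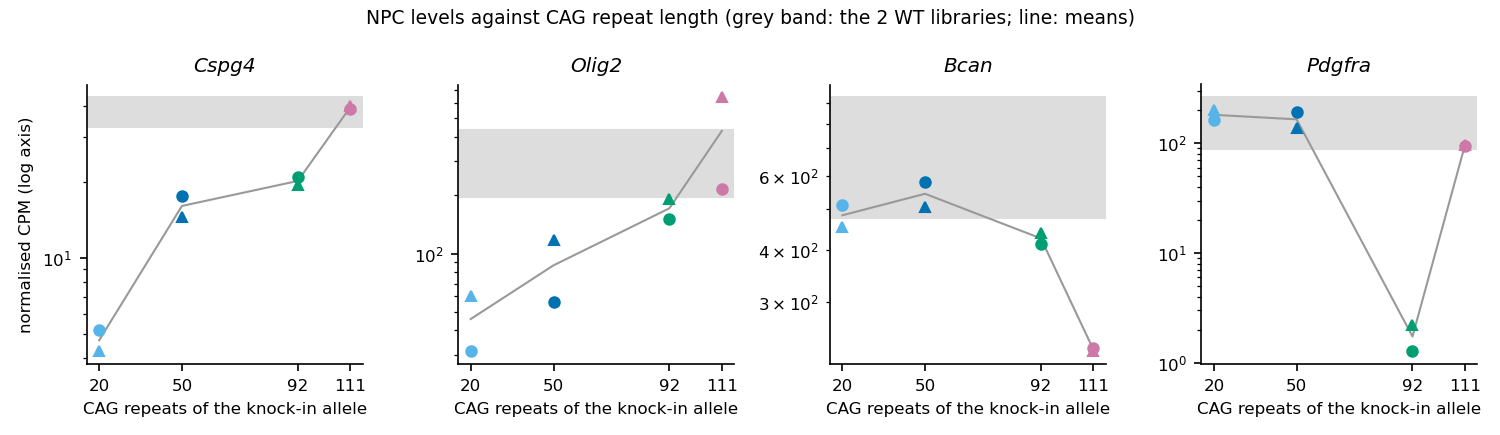
Normalised CPM (log axis) in the 8 knock-in NPC libraries against the number of CAG repeats, with circles for replicate 1, triangles for replicate 2, a line through the group means and a grey band between the 2 WT libraries. Cspg4 and Olig2 rise from Q20 into the WT band at Q111, Bcan leaves the band downward, and Pdgfra is low at Q92 alone.

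Over all 6 NPC genotypes, 5 of the 7 genes differed in an F test with limma, where 38% of all tested genes did. Their adjusted p was 0.000105 for Cspg4, 0.000194 for Pdgfra, 0.0195 for Nkx2-2, 0.0325 for Olig2 and 0.0411 for Bcan. Sox10 (0.148) and Ptprz1 (0.298) were not called. Without the Q92 line, the adjusted p of Pdgfra was 0.247, and Cspg4 and Olig2 were called. Without the Q20 line, Pdgfra and Cspg4 were called and the other 5 genes were not.

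Genes of the same lineage outside the list were read from a list of 20 other progenitor genes, of which 19 were tested in NPC. Against WT, Q20 had 5 of them higher and 1 lower, with a median change of 0.29 beside -0.017 over all genes, of which 14.5% were called. Among those called were Tnr, a tenascin of perineuronal matrix (2.16, limma adjusted p 0.0053), Nkx6-2 (1.94, adjusted p 0.0175), a homeodomain factor, and Neu4, a sialidase (1.88, adjusted p 0.00377). Gpr17, the receptor of progenitors about to mature, was 546 and 489 CPM in Q20, 116 and 11.1 in WT, 7.69 and 8.79 in KO, 18.8 and 7.38 in Q50, 1.39 and 1.84 in Q92 and 53.7 and 7.37 in Q111. Its change in Q20 against WT was 3.78 and was not called (adjusted p 0.0553). Against Q20 its log2 change was -5.33 in Q50, -7.63 in Q92 and -4.60 in Q111, a fall in each (limma adjusted p 0.0115, 0.00156 and 0.0175), and against WT it was not called in any of these lines (adjusted p 0.0685 to 0.629). In Q92 against Q20, 11 of the 19 were lower and 2 higher, with a median of -1.89 beside 0.060 over all genes, of which 25.8% were called. Against WT, Q92 had 6 lower and 1 higher (median -1.30, beside 8.66% of all genes called). The 1 higher was Nkx6-1, which rose by 4.49 (limma adjusted p 0.000121), the largest change of the 19 against WT. Nkx6-1 was 25.6 CPM in the second Q92 library, its highest value, beside a median of 0.507 over the NPC libraries. Pcdh15, a protocadherin, fell in Q92 against Q20 by 3.69 and against WT by 2.87 (adjusted p 0.00104 and 0.012), and Tnr fell by 3.90 and 1.74 (adjusted p 0.000155 and 0.0272). In Q50, 9 were lower and 2 higher than in Q20 (median -1.01; 18.8% of all genes called), while none of the 19 was called against WT with limma, where 2 had an unadjusted p under 0.05. In Q111, 5 were lower and 1 higher than in Q20, a share near the 28.3% of all genes called, and 1 was higher and none lower than in WT. Over CAG length 3 of the 19 fell and none rose, under the share of all genes called (22%): Nkx6-2 by 2.89, Ncan, which encodes neurocan, by 1.74, and Matn4, a matrilin of the matrix, by 1.50. In KO none of the 19 was called, by limma at adjusted p under 0.05.

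**Figure D4:**
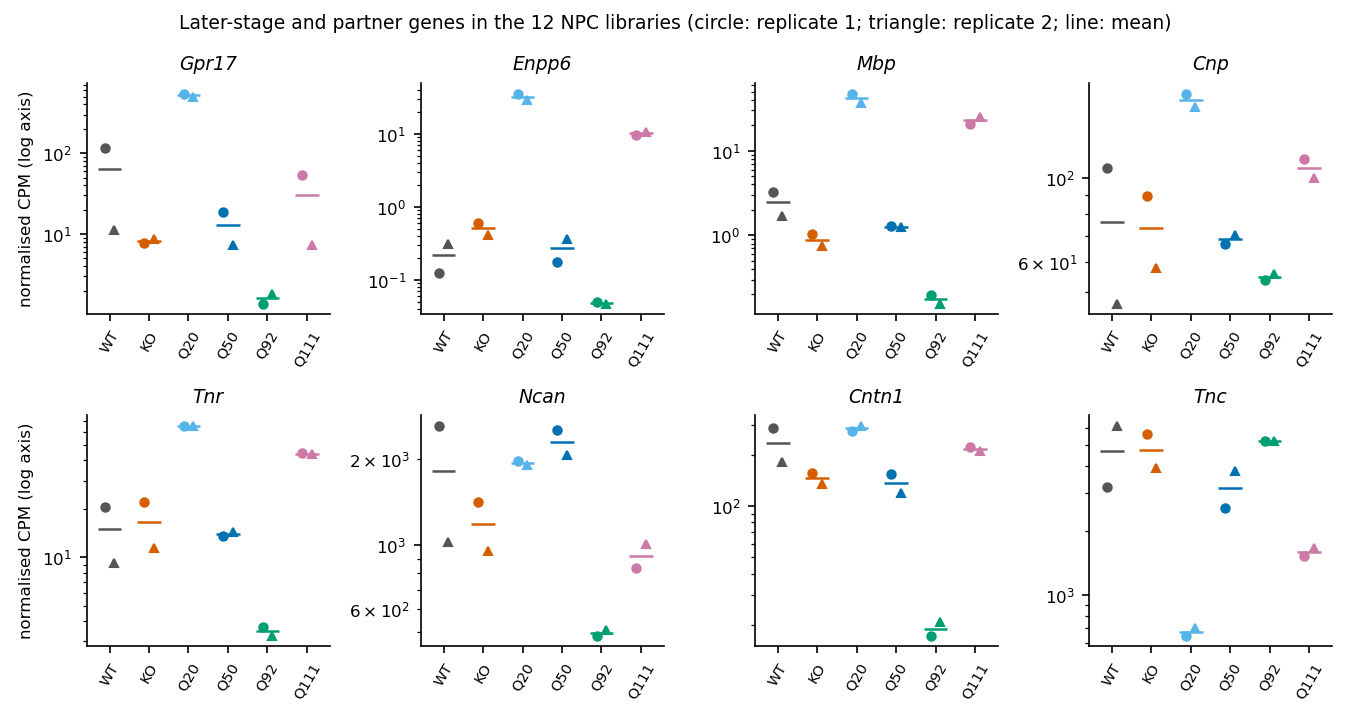
Normalised CPM (log axis) of 8 genes in the 12 NPC libraries by genotype, with a circle for replicate 1, a triangle for replicate 2 and a line at their mean: Gpr17 and Enpp6 of maturing progenitors, Mbp and Cnp of myelin, Tnr, Ncan and Tnc of the matrix, and the contactin gene Cntn1. Q20 is highest for the first 5 and lowest for Tnc, Q92 is lowest for Ncan and Cntn1, and Q111 has the next highest mean for Enpp6, Mbp, Cnp and Tnr.

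Many myelin and maturation genes were higher in the Q20 line than in WT. Of a list of 22, 15 were tested in NPC, and 10 of these were higher in Q20 than in WT and none lower, with a median of 1.73 beside -0.017 over all genes, of which 14.5% were called. Others, such as Bcas1 and Tcf7l2, were not called and had a lower mean in Q20 than in WT. Mbp, which encodes myelin basic protein, was 47.6 and 36.5 CPM in Q20 and 3.26 and 1.68 in WT, a rise of 3.66 (limma adjusted p 3.08e-05). Enpp6, an enzyme of newly formed oligodendrocytes, rose by 4.77 (adjusted p 1.21e-06). Against Q20, genes of the list were called lower in all 3 longer lines: 10 of 15 in Q50, 13 in Q92 and 9 in Q111. In Q92 1 was higher, and none was in the other lines. The shares of all genes called, in either direction, were 18.8%, 25.8% and 28.3%. The list medians were -1.98, -2.06 and -0.85, and the falls start from the high Q20 levels. Against WT, Q50 had 2 of the 15 higher and 1 lower, beside 6.62% of all genes called, and Q92 had none higher and 1 lower, beside 8.66%. Q111 had 6 higher and 2 lower than WT, beside 16.6% of all genes, with a median of 0.71: Enpp6 rose there by 3.19 and Mbp by 2.82 (limma adjusted p 2.43e-05 and 0.0003). Mbp was 20.7 and 25.1 in Q111, under the Q20 pair and above all other lines. Over CAG length Sirt2 alone of the 15 was called, falling by 1.42 (adjusted p 0.0143), where 22% of all genes were. Mog, the late myelin surface protein, was at most 1.06 CPM in any NPC library. The Q20 line thus had the highest mean Gpr17, Enpp6 and Mbp beside the lowest mean Olig2 and Cspg4. In the same 2 libraries 5 pluripotency genes summed to 106 to 108 CPM, beside 4.72 to 26.5 elsewhere, with 2 of the 4 tested higher than in WT, namely Pou5f1 and Nanog. Of 7 neuron genes, 4 were higher and 1 lower in Q20 than in WT, where 14.5% of all genes were called. Their sum of 785 to 961 CPM in Q20 lay within the range of the other libraries, but most of it was Map2. Map2 was lowest in the first Q20 library (599), while Tubb3 (120.5), Dcx (52.2) and Stmn2 (128) were highest in the second Q20 library. The part of these cells' markers in the Q20 values was not tested.

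Ligands, matrix partners and inhibitors formed a list of 18, of which 16 were tested in NPC. In KO against WT, Ptn, which encodes the Ptprz1 ligand pleiotrophin, was 757 and 541 CPM in KO and 2845 and 1645 in WT and fell by 1.75 (SE 0.30, limma adjusted p 0.0347). It was 1 of 2 called, 1 in each direction, beside 1.42% of all genes. In Q20 against WT, 3 were higher and 2 lower, beside 14.5% of all genes called: Mdk, the pleiotrophin relative midkine, rose by 4.19, and Tnc, the matrix protein tenascin-C, fell by 2.72 (adjusted p 1.01e-05 and 0.000722). In Q92 against Q20, 1 was higher and 5 were lower, beside 25.8% of all genes, among them Cntn1, the contactin that binds Ptprz1, at 17.2 and 20.8 CPM against 275 and 296 (a log2 change of -3.84, adjusted p 1.29e-05), and it was lower than in WT as well (-3.53, adjusted p 0.000167). Hes5, a Notch target that holds back differentiation, fell by 4.44 (adjusted p 0.0147) and was not called against WT (-3.49, adjusted p 0.0733). In Q111 against Q20, Pdgfc, a ligand of the Pdgfra receptor, rose by 1.87 (adjusted p 0.00324), 1 of 2 that rose beside 3 that fell, a share near the 28.3% of all genes; against WT it rose by 1.50 (adjusted p 0.0152). Q50 had 3 higher and 5 lower than Q20, beside 18.8% of all genes. Against WT, 3 of the 16 were called in Q50 (2 higher, 1 lower), beside 6.62% of all genes. In Q92 3 were called (1 higher, 2 lower), beside 8.66%, and in Q111 4 (1 higher, 3 lower), beside 16.6%. Pdgfa, the chief ligand of Pdgfra in this lineage, was 6.52 to 19.4 CPM in all NPC libraries. Shh, the ventral signal that induces Olig2, was 2.52 and 2.28 CPM in Q20 and at most 0.250 elsewhere.

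Markers of other cell types moved between the same NPC lines. The summed level of 10 fibroblast and pericyte genes, cells that also express Pdgfra or Cspg4, was 900 to 921 CPM in Q50, 255 to 316 in Q20, 32.0 to 40.6 in WT, 23.9 to 31.7 in KO, 11.2 to 11.9 in Q92 and 7.71 to 8.10 in Q111. Col3a1, a fibrillar collagen, was 608 and 630 in Q50 and 1.31 and 1.28 in Q111; Rgs5, of pericytes, was at 0 in the 4 WT and KO libraries and at most 0.541 elsewhere. Pdgfra was 193 and 139 in Q50 and 162 and 203 in Q20, the lines with the highest fibroblast sums. It was 95.6 and 96.7 in Q111 and 1.27 and 2.20 in Q92, 2 lines where the fibroblast sum lay at 11.2 to 11.9 (Q92) and 7.71 to 8.10 (Q111). Cspg4 was 17.6 and 14.5 in Q50, where the fibroblast sum was highest, and 39.0 and 39.9 in Q111, where it was lowest. The part of fibroblasts and pericytes in the Pdgfra and Cspg4 values was not tested. The summed level of 7 astrocyte genes was 2306 to 2610 in Q20, 348 to 556 in Q92, 276 to 287 in Q111 and 915 to 2133 in the other lines. In Q92, 6 of the 7 were called lower than in Q20, beside 25.8% of all genes called. Against WT, 4 of the 7 were lower in Q92, beside 8.66%, and none was higher in either comparison. In Q111, 5 were lower and none higher than in Q20, beside 28.3% of all genes. Against WT, Q111 had 2 lower and 1 higher, beside 16.6%. Over CAG length 4 fell and none rose, beside 22%. Neural crest and Schwann cell genes, which share Sox10, summed to 37.0 to 38.2 in Q92 and to between 76.0 and 860 elsewhere, most of it Ednrb. In bulk RNA, fewer cells of a type and less RNA per cell cannot be told apart.

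The genes most like each member over the 12 NPC libraries, among 10563 with a mean of at least 5 CPM, were taken as the 3 with the highest Pearson r of log2(CPM + 1). For Pdgfra these were Fam213a (r 0.978), Grin3a (0.965), a glutamate receptor subunit, and Lhfpl3 (0.965), which is in the list of progenitor genes. Cspg4 was followed most closely by Polg (0.964), Tmem209 (0.937) and Cd164 (0.92). For Olig2 they were Zmynd11 (0.89), Akt1 (0.883) and Ptpn12 (0.882), and for Nkx2-2 Sirt5 (0.91), Pllp (0.908), a myelin protein gene, and Clu (0.904). Bcan was most like Agrn (0.987), Ptprz1 most like Dock4 (0.961) and Sox10 most like Nhsl1 (0.917). Such values are a description of 12 libraries from 6 lines.

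In mESC the median of the 12 libraries was 8.90 CPM for Pdgfra and 0.0784 to 2.55 CPM for the other tested members. No member was called in any of the 7 mESC comparisons with limma. The share of all 13916 tested genes that was called there was 0.0144% for KO against WT, 0.323% for Q20 against WT and 0.00719% each for Q50 and Q92 against Q20. It was 0% for Q111 against Q20 and for the CAG trend, and 0.201% for any difference. An unadjusted limma p under 0.05 was found for 1 of 7 members in KO against WT, 2 in Q20 against WT and 1 in the test for any difference. Over all 13916 genes it was found for 553, 1716 and 1379. With the replicate number as a block, which pairs the mESC libraries, 1475 genes were called for Q20 against WT (45 without it), 1206 for any difference (28), 137 for Q50 (1), 64 for Q92 (1), 8 for Q111 (0) and 16 for KO (2). Of the members, Pdgfra in Q20 against WT was then called (-1.75, adjusted p 0.0243).

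Pdgfra in mESC was 28.0 and 18.1 CPM in WT, 9.69 and 7.72 in KO, 4.12 and 8.5 in Q20, 9.88 and 9.31 in Q50, 4.08 and 4.88 in Q92 and 10.5 and 7.42 in Q111. Both WT libraries lay above all others. The change in Q20 against WT was -1.75 (SE 0.37, limma adjusted p 0.0988) without the block, and that in KO was -1.28 (SE 0.37, adjusted p 0.961). Of the markers of primitive endoderm, which also expresses Pdgfra, 4 of 7 (Cubn, Dab2, Gata6 and Sox17) were highest in the first WT library, and Gata4, Sox7 and Foxa2 were highest in a Q50 library. Cubn was 219 and 71.8 in WT and 14.3 to 114 elsewhere, and Dab2 was 74.1 and 24.6 in WT and 5.46 to 20.4 elsewhere. The summed level of 7 such genes was 113 to 312 in WT, 51.8 to 146 in KO and 26.0 to 82.9 in the knock-in lines. Fibroblast genes, which the feeder cells would carry, went the other way, with a sum of 14.5 to 20.3 in WT and KO and 50.1 to 74.6 in the knock-in lines. Their part in the Pdgfra values was not tested.

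Of the other members, Olig1, Olig2, Bcan and Ptprz1 were high in some mESC libraries and low in the rest. Olig1 (ENSMUSG00000046160, chromosome 16, 91269772 to 91271933, plus strand, a gene of 1 exon 44.3 kb from Olig2) was 21.2 CPM in the second Q20 library, 10.9 in the second Q92 library and 5.31 in the library labelled KO 1. It was 3.07 in the second Q111 library, 1.81 in the second Q50 library and at most 0.844 in the other 7 libraries, with 0 reads in 1 WT library. Ptprz1 was 28.6, 14.6 and 7.40 and Bcan 14.1, 7.05 and 3.90 in the first 3 of these, with at most 4.61 and 2.38 in the other 9. Olig2 was 3.15 in the second Q20 library, 2.49 in the library labelled KO 1 and 2.18 in the second Q111 library, at most 0.667 elsewhere, and without a read in 4 libraries, both WT libraries among them. Fabp7, a neural stem gene, was highest in the same 3 libraries as Olig1, at 69.3, 33.9 and 18.5, then 7.84 and 6.25, and at most 0.326 in the other 7. Ptn was 31.8, 15.5 and 5.75 and Ednrb 20.7, 5.61 and 5.12 in those 3 libraries. The traces of Olig1, Bcan and Ptprz1 thus came with Fabp7, Ptn and Ednrb, and split the 2 replicates of Q20, Q92 and KO. Among the other neural stem genes, Slc1a3, Vim, Msi1 and Notch1 each had their highest value in 1 of those 3 libraries. They were not high in all 3: Vim was 396 in the second Q92 library and lowest of all, at 74.2, in the library labelled KO 1. Nes, Prom1 and Pax6 had their highest values elsewhere: in the first Q20 library (158), the first Q111 library (78.4) and the second Q111 library (24.7). For Ptprz1 in Q20 the SD was 18.9 CPM around a mean of 15.3 (n = 2). Cspg4 stayed between 0.758 and 5.03 CPM, Sox10 between 0.354 and 1.68 and Nkx2-2 at or under 0.758.

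**Figure D5:**
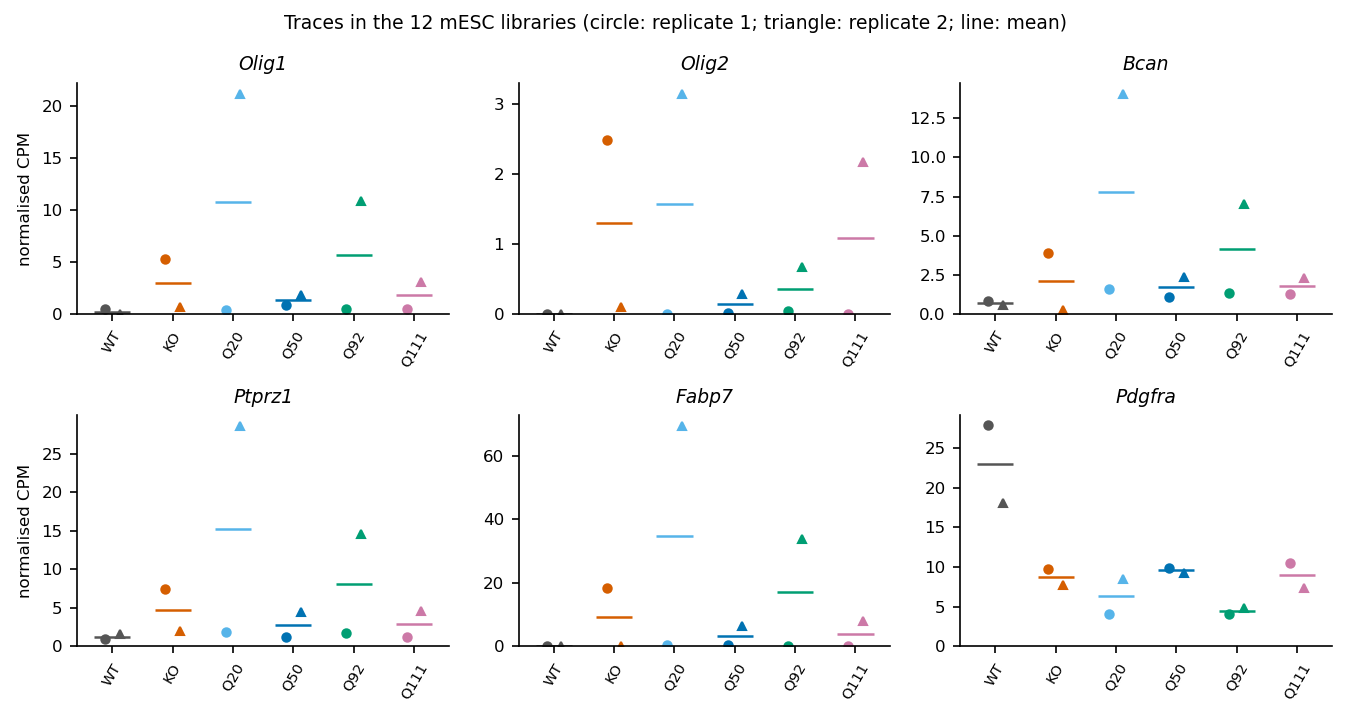
Normalised CPM of Olig1, Olig2, Bcan, Ptprz1, the neural stem gene Fabp7 and Pdgfra in the 12 mESC libraries by genotype, with a circle for replicate 1, a triangle for replicate 2 and a line at their mean. Olig1, Bcan, Ptprz1 and Fabp7 are highest in the second Q20 library, then in the second Q92 library and the library labelled KO 1, and Pdgfra is highest in both WT libraries.

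Whether a change differed between the cell types was tested as the difference of the NPC and mESC changes over all 24 libraries, for 12321 genes tested in both. Levels were not compared between the tables, since the tables were normalised separately. For Cspg4 the change in Q20 against WT was -2.77 in NPC and 1.05 in mESC, a difference of -3.81 (SE 0.48, limma adjusted p 0.000287); 4.27% of all genes were called. Its difference was 1.75 in Q92 against Q20 (SE 0.48, adjusted p 0.0441; 5.96% of all genes called) and 3.41 in Q111 against Q20 (SE 0.48, adjusted p 0.000673; 4.97%). In the CAG trend it was 2.86 (SE 0.55, adjusted p 0.00933; 4.86%). Pdgfra in Q92 against Q20 changed by -6.08 in NPC and by -0.35 in mESC, a difference of -5.73 (SE 0.61, limma adjusted p 4.85e-05). No other difference of the 6 members tested in both cell types was called in these comparisons. For Olig2 it was -3.74 in Q20 against WT (adjusted p 0.0705) and 3.05 in the trend (adjusted p 0.0689).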

How the data were processed

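Per the labels' protocols, libraries of total RNA were read from both ends on an Illumina NextSeq; the submitters' processing notes name CASAVA 1.8, STAR and GRCm38.p6. The deposited signal is a normalised CPM in 1 table per cell type, scaled by the authors; 100% of values were whole multiples of 1 read (tolerance 0.1 reads), so reads were recovered. Filtering kept genes with at least 1 CPM in 2 libraries. log2(CPM + 1), which understates changes of low genes, was tested with limma 3.58.1 (two-sided, variance trend, mean of each of 6 groups; Benjamini-Hochberg over all tested genes, threshold 0.05). edgeR 4.0.16 on the recovered reads was an alternative and called 107 to 3436 genes in the 5 NPC pairs (limma 188 to 3743). Members, lists and alternatives were chosen with earlier results of these data known. Named genes: all members, and per list and comparison up to 3 called genes of at least 5 CPM with the largest change; Gpr17, Mbp, Mog, Shh, Pdgfa and other list genes given without a call were chosen after seeing values. In mESC all 15 correlations of replicate differences exceeded 0.1 (0.25 to 0.547), so numbers pair libraries; in NPC 3 of 15 did. Positions are GENCODE M21 (GRCm38) by Ensembl identifier. The scripts were tested on simulated data.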

Additional observations from a re-analysis of the deposited data

Results flagged for a closer look

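The following changes differed between NPC and mESC by a limma test of the difference itself, over all 24 libraries. For Cspg4 the difference of the log2 changes (NPC minus mESC) was -3.81 in Q20 against WT, 1.75 in Q92 against Q20, 3.41 in Q111 against Q20 and 2.86 in the CAG length trend. For Pdgfra it was -5.73 in Q92 against Q20. The mESC levels behind them were low, at most 5.03 CPM for Cspg4 and 28.0 CPM for Pdgfra. Over 12 alternatives each, the Cspg4 differences in Q20 against WT and Q111 against Q20 and that of Pdgfra kept their call, as did the trend over 20. The Cspg4 difference in Q92 against Q20 lost it in 7 of 12, with adjusted p from 0.0158 to 0.179.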

How the results depend on the processing

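Counts below are members called of 7 in NPC. The share of all genes called under each setting is not set beside them, so they show only how the calls depend on the setting. With only the libraries of both groups, Q50, Q92 and Q111 against Q20 gave 2, 5 and 4 (1, 3 and 2 in the shared model). With WT as the reference, Q92 and Q111 each gave 1, and the sign turned for 8 of 21 changes: Cspg4 in Q50 (-1.19) and Q92 (-0.87), Olig2 in Q92 (-0.77), and 5 others not called against Q20 (Olig2, Nkx2-2, Bcan and Pdgfra in Q50, Nkx2-2 in Q111). Leaving out 1 library gave 0 to 3 in KO against WT, 1 to 2 in Q20 against WT, 1 to 2 in Q111 against Q20 and 2 to 6 (main 5) in the test for any difference. That test gave 2 without the Q20 line and 2 without the Q92 line, both added after seeing the data. With 1 mean per line the trend called 0. In mESC Q20 against WT, the replicate block gave 1 with limma and 1 with edgeR.

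In NPC the numbers were not taken to pair libraries: replicate differences correlated at -0.0495 to 0.467, and 3 of 15 exceeded 0.1 (WT, KO and Q50 with each other, highest for WT and KO). The replicate block there gave 2 in Q20 against WT, 3 in Q111 against Q20, 2 in the trend and the same counts as without it elsewhere. Other scalings, pseudocount 0.1 and no filter moved no count by over 1.5 times. With 2 libraries a group and no clones named in the labels, line and genotype cannot be told apart. Depth limits Nkx2-2 in mESC (1 to 58 reads) and Sox10 (17 to 901 in NPC, 20 to 113 in mESC). The cause of these shifts was not tested.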
